A study of Mus musculus with 12 samples.

Results

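Glutamate receptors and the auxiliary proteins that travel with them were described in RNA from the auditory cortex of acute mouse brain slices. The set was a fixed list of 33 gene symbols, and all 33 were present, each as 1 locus, among the 20989 loci of every library. It comprised 4 subunits of AMPA receptors, 7 of NMDA receptors, 5 of kainate receptors, 1 delta receptor subunit, 6 metabotropic receptors, 6 transmembrane AMPA receptor regulatory proteins (TARPs), 2 cornichons and 2 Neto proteins. Coronal slices containing auditory cortex were cut from 6 C57bl6/J mice of 4 weeks of age and separated into hemispheres. From each mouse, 1 hemisphere was kept for 1 h in control artificial cerebrospinal fluid (aCSF) and the other for 1 h in cocktail aCSF, which contained 50 µM bicuculline methiodide, 100 µM norepinephrine, 50 µM carbamoylcholine, 100 µM dopamine, 40 µM ascorbic acid and 100 µM serotonin. Bicuculline blocks inhibitory GABA-A receptors and carbamoylcholine activates acetylcholine receptors, and the study used the mixture to drive neuronal activity. The hemispheres of both groups then rested for a further hour in plain aCSF before the cortex was dissected, as described in the methods. The comparison asks which transcripts differ at that point. PolyA RNA of the dissected cortex gave 6 control and 6 cocktail libraries, paired by mouse.

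Glutamate is the main excitatory transmitter of the cortex. AMPA receptors carry most of the fast synaptic current, NMDA receptors need glutamate together with relief of a magnesium block and admit calcium, kainate receptors modulate transmission on both sides of the synapse, and metabotropic receptors signal through G proteins. TARPs, cornichons and Neto proteins are not channels themselves but bind AMPA or kainate receptors and set their trafficking and gating.

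Levels are FPKM, fragments per kilobase of transcript scaled to the fragments sequenced. Comparisons between genes rest on the transcript length that the quantification assumed for each gene. Between libraries, median-of-ratios scaling factors ran from 0.905 (control library of mouse 1) to 1.042 (control library of mouse 5). They were not applied in the main fit. Recovered from the deposited intervals, 10600193 to 19768184 reads lay behind a library. The least covered gene of the set, Grin3b, had 1 to 16 reads in a library, and the next, Cacng5, had 46 to 130. Level and reads did not always go together. Cacng7, with a control mean of 93.5 FPKM, had 664 to 1503 reads, and Cacng3, with 77.8 FPKM, had 1233 to 2429. Intervals drawn from reads cover counting error only. The groups were separated by 5 immediate-early genes. Fos, Arc, Junb, Fosb and Nr4a1, transcription factors and a synaptic regulator induced within minutes of activity, had log2 fold changes of 0.81 to 0.99 in cocktail against control, and for each of them the groups did not overlap. These 5 were listed with earlier results of these data known, so their separation is a description and not an independent check. The control library of mouse 1 stood apart from the other libraries. Its summed FPKM of 290155 was the lowest, against 306085 to 321759 in the other 11, and 50.1% of the 12032 loci tested had their lowest control value there.

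Among the ionotropic subunits, transcripts of the obligatory NMDA subunit were the most abundant. Grin1, which encodes GluN1, the subunit every NMDA receptor contains (chr2:25291177-25319187), ranged from 149 to 177 FPKM in control with a median of 165 and from 142 to 165 FPKM in cocktail with a median of 158. Its mean was 164 ± 9.47 FPKM in control and 156 ± 7.86 FPKM in cocktail (SD, n = 6). The groups overlapped, and the log2 fold change was -0.07 (95% interval -0.18 to 0.04, limma adjusted p = 0.834).

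The other abundant transcript was an auxiliary subunit. Cnih2, a cornichon that slows the closing of AMPA receptors (chr19:5092868-5098521), lay between 125 and 202 FPKM in control, with a median of 161, and between 119.6 and 176 FPKM in cocktail, with a median of 161. Its control mean of 160 ± 27.7 FPKM (SD, n = 6) was the next after Grin1 among the 33 genes, and these means differed by less than either SD. The log2 fold change was -0.02 (95% interval -0.22 to 0.18, limma adjusted p = 0.982). Annotated exons of Cnih2 and Yif1a overlap on opposite strands, and so do those of Grin3b and Tmem259. These are the 2 overlaps with a protein coding gene. In all, 18 of the 33 genes had an exon overlapping another gene, 11 of them on the opposite strand only. Grin1 and Grm7 are among the 11, each with an antisense transcript. The libraries were made with a kit that keeps strand and the study's methods describe strand-specific reads. The strand option of the quantification is not given in the sources used here, so the values of genes with an overlap on the opposite strand are uncertain.

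At the other end, Grin3b, a glycine-binding NMDA subunit best known from motor neurons, was at 0.157 ± 0.105 FPKM in control and 0.159 ± 0.0402 FPKM in cocktail (SD, n = 6). It lay below the mean of 1 FPKM set for testing and was left out of the fit.

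The promoter bases of the 2 most abundant genes and of the least abundant one are printed to let the composition be seen beside the levels. They are the 250 bases before the annotated start in RefSeq (GRCm38.p6), 5′ to 3′ on the gene's strand, for Grin1 at chr2:25319188-25319437 (minus strand), Cnih2 at chr19:5098522-5098771 (minus strand) and Grin3b at chr10:79970474-79970723 (plus strand). Capitals mark every match, on either strand, to the letters TGACG (the core of the cAMP response element, CRE), TGANTCA (the AP-1 site), GGGCGG (the GC box) or TATAAA (the TATA box).
Grin1: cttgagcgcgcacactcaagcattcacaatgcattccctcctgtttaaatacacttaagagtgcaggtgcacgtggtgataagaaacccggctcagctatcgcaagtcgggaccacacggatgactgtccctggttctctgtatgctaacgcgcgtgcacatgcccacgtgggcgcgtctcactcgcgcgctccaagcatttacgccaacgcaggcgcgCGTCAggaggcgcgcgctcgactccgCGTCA
Cnih2: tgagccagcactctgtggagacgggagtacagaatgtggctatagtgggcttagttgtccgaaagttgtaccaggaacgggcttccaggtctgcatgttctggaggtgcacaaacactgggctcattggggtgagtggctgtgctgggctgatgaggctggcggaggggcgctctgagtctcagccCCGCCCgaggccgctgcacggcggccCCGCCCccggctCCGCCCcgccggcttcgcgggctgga
Grin3b: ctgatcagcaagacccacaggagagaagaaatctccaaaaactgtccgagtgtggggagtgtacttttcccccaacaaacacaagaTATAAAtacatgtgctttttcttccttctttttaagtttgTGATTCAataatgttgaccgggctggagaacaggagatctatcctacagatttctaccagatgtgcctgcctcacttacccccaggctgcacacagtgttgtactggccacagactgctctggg

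The Grin1 stretch holds 2 CRE cores, that of Cnih2 holds 3 GC boxes, and that of Grin3b holds 1 AP-1 site and 1 TATA box. RefSeq windows of 300 bases (250 before and 50 after the start) were found for 22 of the 33 genes, with 27 windows in all. Their median GC content was 63.3%, against 52.7% over all 32851 windows. A GC box was in 15 of the 27 windows, against 35.7% of all windows, and in 14 genes that included Grik5, Grin1 and Cnih2. The CRE core was in 3 windows (Grik2, Grin1 and Grm8), against 20.8% of all, the AP-1 site in 3 (Cacng5, Grin3b and Grm8), against 7.81%, and the TATA box in 1 (Grin3b), against 13.6%. The full CRE, TGACGTCA, which contains the core, was in none of the 27 and in 1.79% of all windows. Such matches describe letters in a window and not sites in use.

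**Figure D1:**
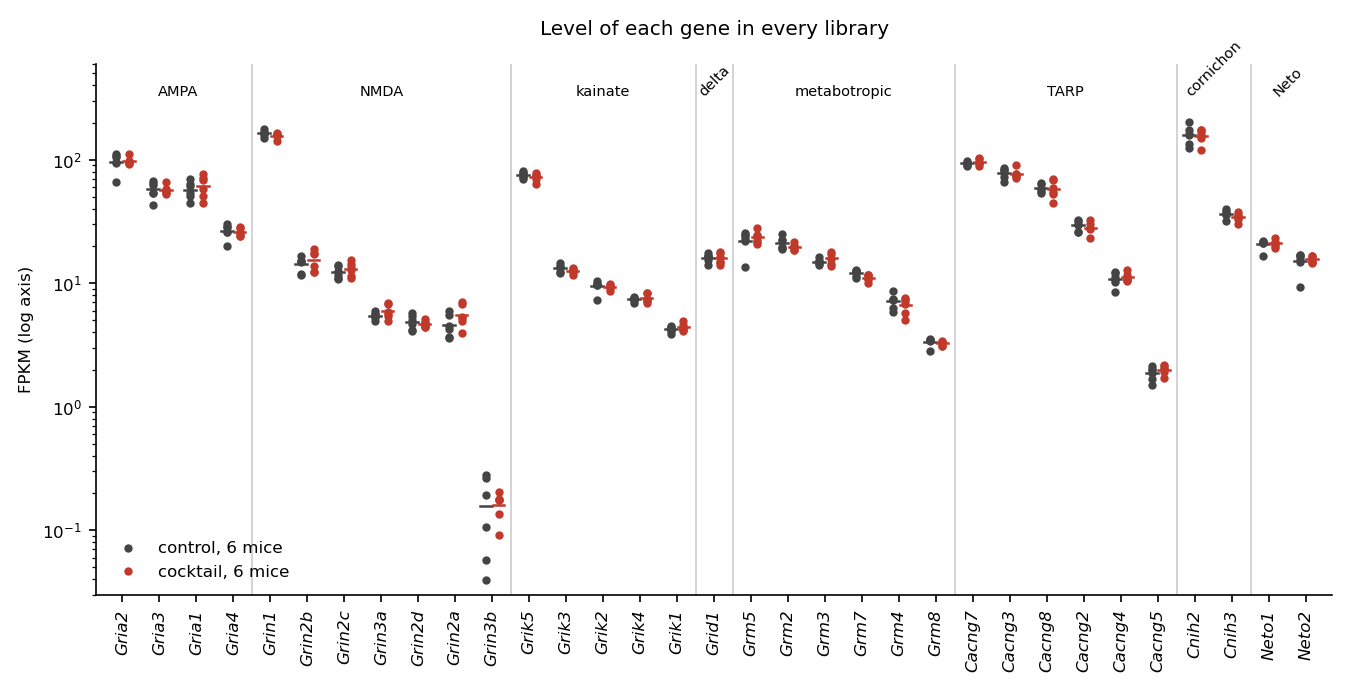
FPKM (log axis) of each of the 33 genes in every library, grouped by family, with grey points for the 6 control and red points for the 6 cocktail libraries. Grin1, Cnih2, Gria2 and Cacng7 sit at the top, Grin3b alone lies below 1 FPKM, and the control and cocktail points of every gene overlap.

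AMPA receptor transcripts were led by Gria2, the subunit whose edited form keeps calcium out of the channel (chr3:80684936-80802791). Gria2 ranged from 65.7 to 111 FPKM in control with a median of 100.3 and from 92.9 to 112 FPKM in cocktail with a median of 95.8, and its mean was 96.2 ± 16.3 FPKM in control and 98 ± 7.02 FPKM in cocktail (SD, n = 6). The lowest control value was that of mouse 1, and every cocktail value lay inside or just above the control range. Its log2 fold change was 0.04 (95% interval -0.14 to 0.22, limma adjusted p = 0.942). Gria3 (57.6 ± 8.95 FPKM) and Gria1 (57.2 ± 9.33 FPKM), which form the other principal subunits of cortical receptors, did not have a fixed order, since Gria3 was the higher in 3 of 6 control libraries. Gria4, a subunit of fast receptors common in interneurons, was lowest at 26.5 ± 3.57 FPKM. Gria2 made up 40.3 ± 2.39% of the summed FPKM of the AMPA subunits in control and 40.4 ± 1.70% in cocktail. The share of Gria1 spanned 19.8% (mouse 6) to 29.3% (mouse 1) in control, the widest range of the 4 subunits. The quantification carried a failure status for Gria1 in the control library of mouse 6, where 50.4 FPKM was deposited, and 4916 to 9705 reads lay behind it in the other 11 libraries.

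Below Grin1, the NMDA subunits that set receptor kinetics were scarcer. Grin1 exceeded Grin2b by 9.85 to 15.3 times in the 6 control libraries. Grin2b, the slow GluN2 subunit that dominates early in life, was at 14.2 ± 2.05 FPKM, and Grin2c, best known from cerebellum, thalamus and astrocytes, at 12.3 ± 1.36 FPKM, with Grin2b the higher in 5 of 6. The order of Grin3a (5.47 ± 0.354 FPKM), an inhibitory subunit that lowers calcium entry, Grin2d (4.85 ± 0.649 FPKM), a slow subunit found in interneurons, and Grin2a (4.59 ± 0.970 FPKM), the fast subunit that increases with maturation, was held in 4 of 6 libraries at each step. Of the 4 GluN2 transcripts in control, Grin2b made up 39.4%, Grin2c 34.3%, Grin2d 13.7% and Grin2a 12.7%.

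Grin2a had the largest rise of the tested genes and did not pass the test. In control it was at 3.60, 4.27, 5.98, 4.47, 5.51 and 3.68 FPKM in mice 1 to 6, and in cocktail at 4.91, 7.09, 3.95, 6.83, 5.22 and 5.29 FPKM. It was higher in cocktail in 4 of 6 mice and the groups overlapped. The log2 fold change was 0.23 (SE 0.124, 95% interval -0.04 to 0.50, limma adjusted p = 0.722), and an exact sign-flip permutation test (two-sided, 6 mice) gave p = 0.281. Without mouse 3, in which it was lower, the change was 0.37 (adjusted p = 0.154). As a share of Grin2a and Grin2b together, Grin2a was 24.3 ± 2.14% in control and 26.5 ± 2.08% in cocktail, higher in 4 of 6 mice.

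**Figure D2:**
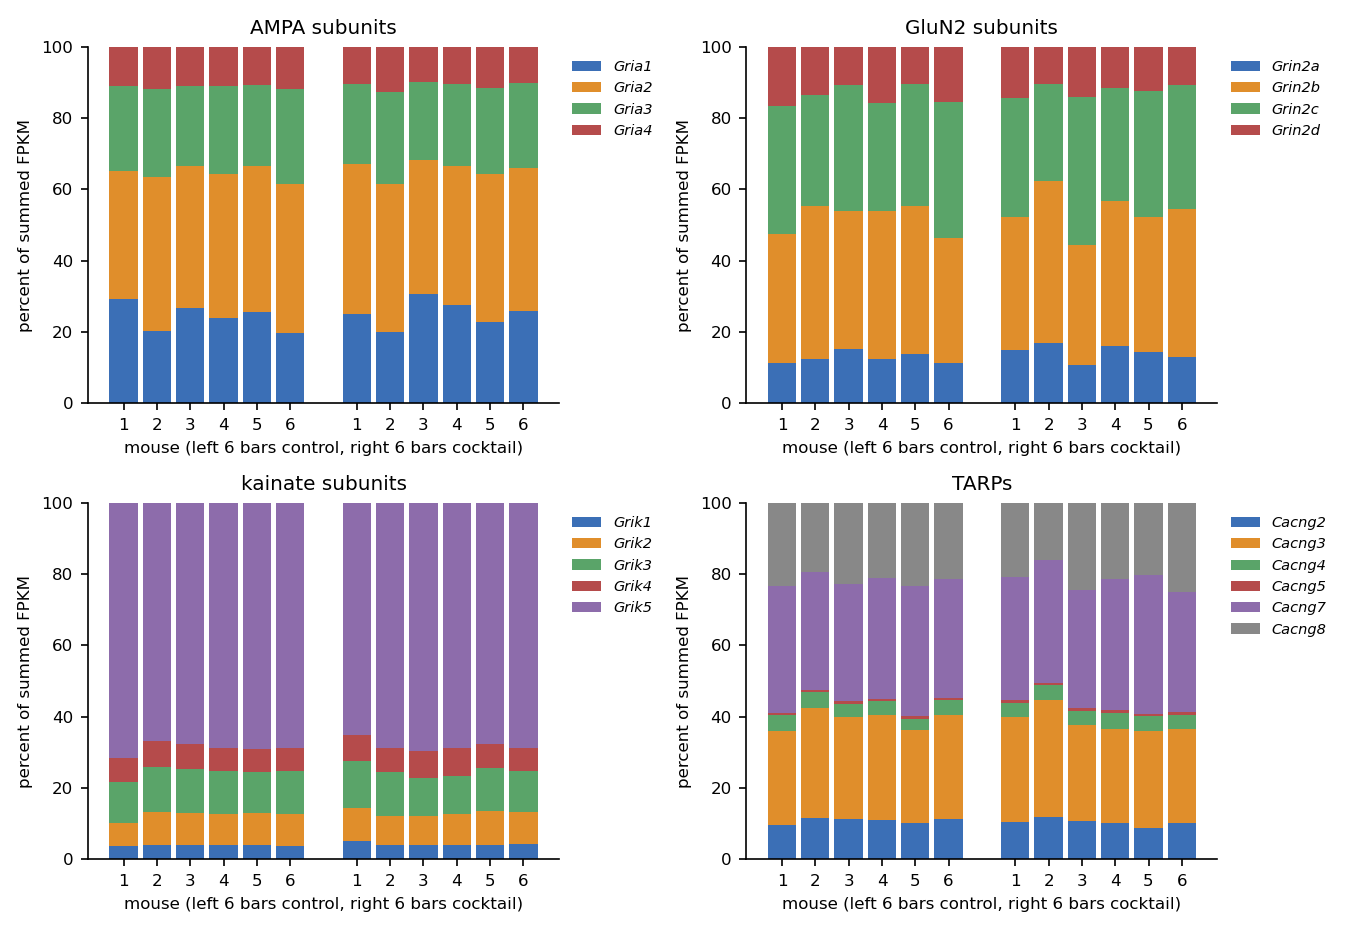
Share of summed FPKM (percent) of each subunit within the AMPA, GluN2, kainate and TARP families, with 1 bar per library, the left 6 bars control and the right 6 cocktail. Gria2 and Grik5 lead their families in all 12 libraries, and Grin2b and Grin2c together hold most of the GluN2 sum.

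The kainate family was dominated by a subunit that does not form channels alone. Grik5, a high-affinity partner subunit (chr7:25009851-25072369), ranged from 70.3 to 81.5 FPKM in control with a median of 75.6 and from 64.2 to 78.1 FPKM in cocktail with a median of 74.0. It made up 68.8 ± 1.59% of the kainate sum in control. The channel-forming subunits Grik3 (13.3 ± 0.912 FPKM), Grik2 (9.47 ± 1.11 FPKM) and Grik1 (4.23 ± 0.226 FPKM) and the other partner subunit, Grik4 (7.40 ± 0.309 FPKM), were lower, and Grik2 exceeded Grik4 in 5 of 6 control libraries. The log2 fold change of Grik5 was -0.06 (95% interval -0.18 to 0.05, limma adjusted p = 0.850). Grid1, a delta receptor that binds synaptic organisers rather than conducting a glutamate current (chr14:34820136-35581115), ranged from 14.1 to 17.6 FPKM in control and from 13.9 to 17.9 FPKM in cocktail, with a log2 fold change of -0.02 (95% interval -0.13 to 0.09).

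Of the metabotropic receptors, Grm5, the postsynaptic receptor coupled to phospholipase C (chr7:87584168-88135063), had the highest control mean, 22.1 ± 4.35 FPKM. In control it was at 13.6, 22.1, 24.3, 24.4, 25.4 and 23.0 FPKM in mice 1 to 6, and in cocktail at 24.2, 20.9, 21.8, 24.4, 22.4 and 28.2 FPKM. The control library of mouse 1 was far below the rest, the groups overlapped, and the log2 fold change was 0.11 (95% interval -0.13 to 0.35, limma adjusted p = 0.881). Grm2, an inhibitory autoreceptor, was at 21.2 ± 2.32 FPKM, below Grm5 in 5 of 6 control libraries, and Grm3, its relative in neurons and glia, at 15.0 ± 0.691 FPKM. The presynaptic inhibitory receptors Grm7 (12.2 ± 0.689 FPKM), Grm4 (7.15 ± 1.03 FPKM) and Grm8 (3.36 ± 0.272 FPKM) followed in the same order in 6 of 6 control libraries.

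Grm7 had the largest fall of the tested genes. The receptor encoded by Grm7 (chr6:110645598-111567230) sits in the active zone of the presynaptic terminal. Values in control were 11.1, 12.5, 12.6, 12.8, 11.5 and 12.5 FPKM in mice 1 to 6, and those in cocktail were 11.6, 11.6, 10.8, 10.9, 10.1 and 11.6 FPKM. It was lower in cocktail in 5 of 6 mice, all but mouse 1, and the groups overlapped. The log2 fold change was -0.13 (SE 0.0523, 95% interval -0.24 to -0.01), with an unadjusted p of 0.0347 and an adjusted p of 0.527 in limma, and the exact sign-flip permutation test (two-sided, 6 mice) gave p = 0.0625, where 0.03125 is the smallest p that 6 pairs allow. As a share of the metabotropic sum, Grm7 was 15.0 ± 0.536% in control and 13.8 ± 0.611% in cocktail, lower in 6 of 6 mice. In mouse 1 the share was lower although Grm7 itself was higher. The metabotropic sum of that mouse was 74.3 FPKM in the control library and 86.4 FPKM in the cocktail library. Grm5, a part of this sum, was at 13.6 and 24.2 FPKM there. These are unscaled FPKM, and the scaling factors of the control and cocktail libraries of mouse 1 were 0.905 and 0.979. The direction of Grm7 in mouse 1 can depend on that scaling. What lowered its share there was not tested.

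TARP transcripts spanned a wide range of levels and kept their order in control. Cacng7, a TARP that alters channel gating (chr7:3336585-3366948), ranged from 88.8 to 98.3 FPKM in control with a median of 94.0 and from 89.7 to 103 FPKM in cocktail with a median of 94.6. Cacng3 (77.8 ± 6.97 FPKM), Cacng8 (59.4 ± 4.56 FPKM) and Cacng2 (29.4 ± 2.73 FPKM), which deliver AMPA receptors to the synapse, followed in this order in 6 of 6 control libraries, and Cacng4 (10.8 ± 1.41 FPKM) and Cacng5 (1.87 ± 0.245 FPKM) were lowest. Reads per library were 664 to 1503 for Cacng7 and 1233 to 2429 for Cacng3. The order of these 2 in FPKM thus rests on the transcript length assumed for each. Cacng7 and Cacng8 are neighbours on chromosome 7, 27168 bases apart, and Cacng4 and Cacng5 lie 80140 bases apart on chromosome 11. The log2 fold change of Cacng7 was 0.04 (95% interval -0.06 to 0.14, limma adjusted p = 0.894).

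The remaining auxiliary subunits differed in how they varied between mice. Cnih3, the other cornichon that binds AMPA receptors, was chosen for description after its values were seen. It was at 36.2, 31.9, 35.4, 36.8, 39.6 and 38.5 FPKM in control and at 33.6, 30.4, 33.2, 35.8, 34.9 and 37.8 FPKM in cocktail in mice 1 to 6. It was lower in cocktail in 6 of 6 mice, a pattern shown by 1 of the 32 genes tested and by 2.66% of the loci tested, although the groups overlapped. Its log2 fold change was -0.08 (95% interval -0.18 to 0.01, limma adjusted p = 0.692), and the exact sign-flip permutation test (two-sided, 6 mice) gave p = 0.03125. Any gene with the same direction in 6 of 6 mice has this p in that test, so it adds nothing to the count of mice. Neto1, a kainate receptor partner that also binds NMDA receptors, ranged from 16.6 to 22.0 FPKM in control and from 19.2 to 23.3 FPKM in cocktail, and Neto2, which speeds recovery of kainate receptors, was at 15.1 ± 2.98 FPKM in control and 15.6 ± 0.925 FPKM in cocktail. The log2 fold changes were 0.02 for Neto1 (95% interval -0.09 to 0.13) and 0.07 for Neto2 (-0.12 to 0.25), with adjusted p-values of 0.955 and 0.901 in limma.

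Across the set, no tested transcript passed the test of cocktail against control. Of the 32 genes tested, 0 were called at an adjusted p under 0.05 in limma, where 1.5% of the 12032 loci were called, 1.22% higher and 0.274% lower. At an unadjusted p under 0.05 there was 1 of 32, Grm7, against 8.05% of all loci, and the fit with voom on recovered reads also called 0. The control and cocktail values did not separate for any of the 32 genes, against 0.914% of all loci. Log2 fold changes were above 0 in 15 genes and below 0 in 17, with a median of -0.01 over the genes, while 54.4% of all loci tested were above 0, with a median of 0.01. After Grin2a, the largest positive values were those of Grm5 (0.11), Grin2b (0.10), Gria1 (0.10) and Grin3a (0.09), and after Grm7 the largest negative ones were those of Grm4 (-0.09), Grm2 (-0.09) and Cnih3 (-0.08). Without mouse 6, the values of Grin2b and Gria1 were 0.01 and 0.02, and without mouse 5 they were 0.17 and 0.20, none of them called. The control value of Gria1 in mouse 6 is the one with a failure status. All 32 intervals lay within 0.5 of 0 on the log2 scale, 29 within 0.3 and 27 within 0.25, and none reached 0.81, the smallest change of the 5 immediate-early genes. Those 5 had been listed with earlier results of these data known. The standard errors had a median of 0.0594, against 0.0610 over all loci. In RNA of whole tissue, fewer cells of a type and less RNA per cell cannot be told apart.

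**Figure D3:**
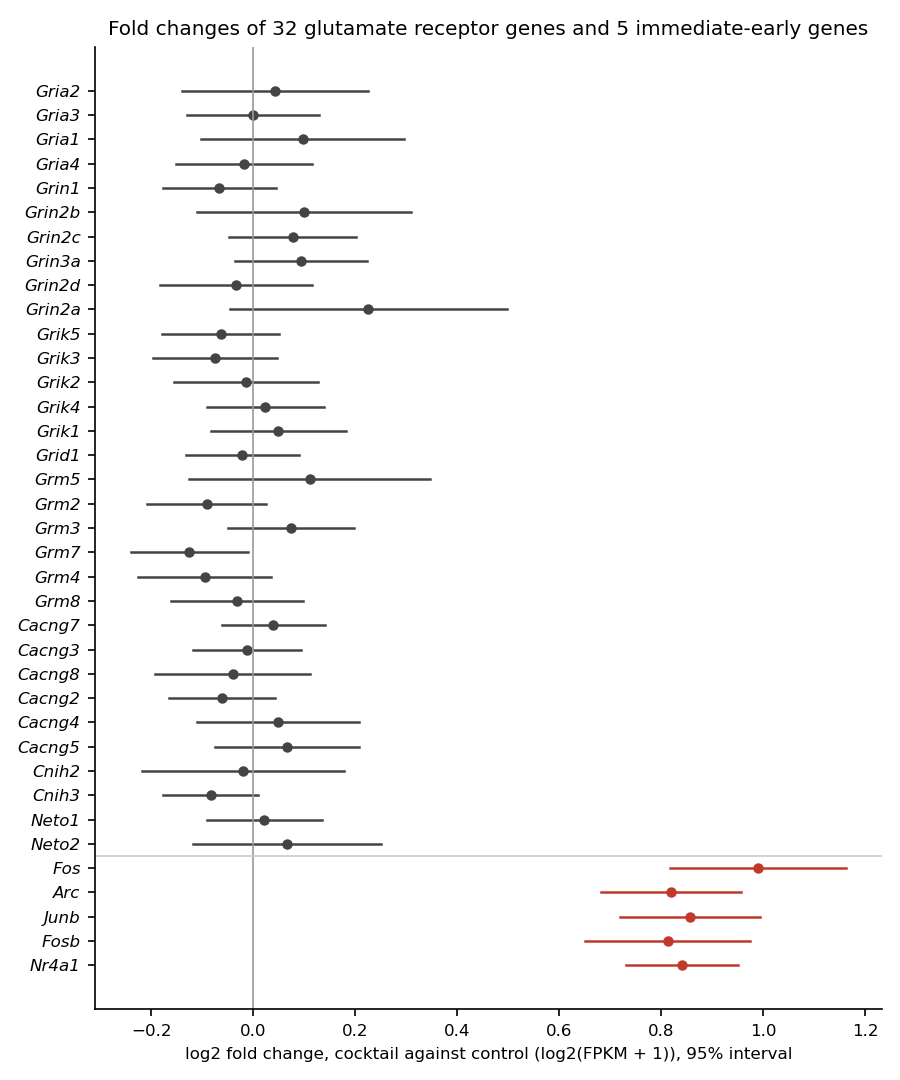
Log2 fold change of cocktail against control on the log2(FPKM + 1) scale, with 95% intervals, for the 32 genes tested (grey) and 5 immediate-early genes (red). The intervals of the 32 genes stay between -0.24 and 0.50, and only that of Grm7 lies wholly on one side of 0, while the immediate-early genes lie at 0.81 to 0.99.

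Other genes of glutamate signalling moved as little. Of 34 genes for further AMPA receptor auxiliary proteins, postsynaptic scaffolds and glutamate transporters and enzymes, 33 were tested and 0 were called, with 14 above 0 and 19 below. At an unadjusted p under 0.05 there were 2, against 8.05% of all loci, both lower in cocktail, Shank2 and Dlgap3 (log2 fold change -0.11, limma adjusted p = 0.569), and voom also called 0. The largest fall was that of Shank2, a scaffold of the postsynaptic density, at 36.9 ± 3.14 FPKM in control and 33.9 ± 4.20 FPKM in cocktail (log2 fold change -0.12, limma adjusted p = 0.458, lower in 5 of 6 mice). The largest rise was that of Shisa6, an AMPA receptor auxiliary protein, at 6.54 ± 1.82 FPKM in control and 7.32 ± 2.38 FPKM in cocktail (log2 fold change 0.13, adjusted p = 0.898, higher in 3 of 6 mice).

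The makeup of the tissue was read from marker lists. Excitatory markers such as Slc17a7 (689 ± 38.0 FPKM in control) and inhibitory markers such as Gad1 (91.5 ± 5.77 FPKM) were present in all libraries, and 0 of 8 genes in each list were called. Log2 fold changes were above 0 for 8 of 8 inhibitory markers (median 0.08), 8 of 8 oligodendrocyte markers (median 0.12) and 7 of 8 astrocyte markers (median 0.07), and for 3 of 8 excitatory markers (median -0.05). Of 8 astrocyte markers 1 was called, Sox9, at 12.1 FPKM in control and 15.2 FPKM in cocktail (limma adjusted p = 0.0235), where 1.5% of all loci tested were called. Among the oligodendrocyte, oligodendrocyte precursor, microglial, endothelial, striatal, thalamic and hippocampal markers that could be tested, 0 were called. Of these, 3 had an unadjusted p under 0.05, against 8.05% of all loci tested. The part of cell makeup in the values of the receptor genes was not tested.

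The control library of mouse 1 touched the receptor genes unequally, along their base composition. Of the 32 genes, 14 had their lowest control value in that library and 4 their highest. Of all loci tested, 50.1% had their lowest control value there and 11.98% their highest. The median deviation from the mean of the other 5 control libraries was -0.098 for the 32 genes. Over all loci tested it was -0.142, both on the log2 scale. The 32 genes as a set were thus not lower in that library than loci at large. The 10 genes of lowest GC content, 36.5% to 45.9% of the transcript, all lay below the mean of the other 5 control libraries, by a median of -0.43 on the log2 scale (range -0.77 to -0.23), whereas the 10 of highest GC content, 54.6% to 65.1%, had a median of 0.07. Across the 32 genes, which share the library and its depth, the deviation and GC content had a Pearson r of 0.84. Over 11590 loci it was 0.54, while no other library exceeded 0.244 in size against the remaining 11. Without mouse 1, the log2 fold changes of Gria2, Grm5 and Neto2 went from 0.04, 0.11 and 0.07 to -0.06, -0.03 and -0.04, and that of Grm7 from -0.13 to -0.16 (limma adjusted p = 0.171). With the trend on GC content and length removed from each library they were 0.01, 0.09, 0.03 and -0.14, none of them called.

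**Figure D4:**
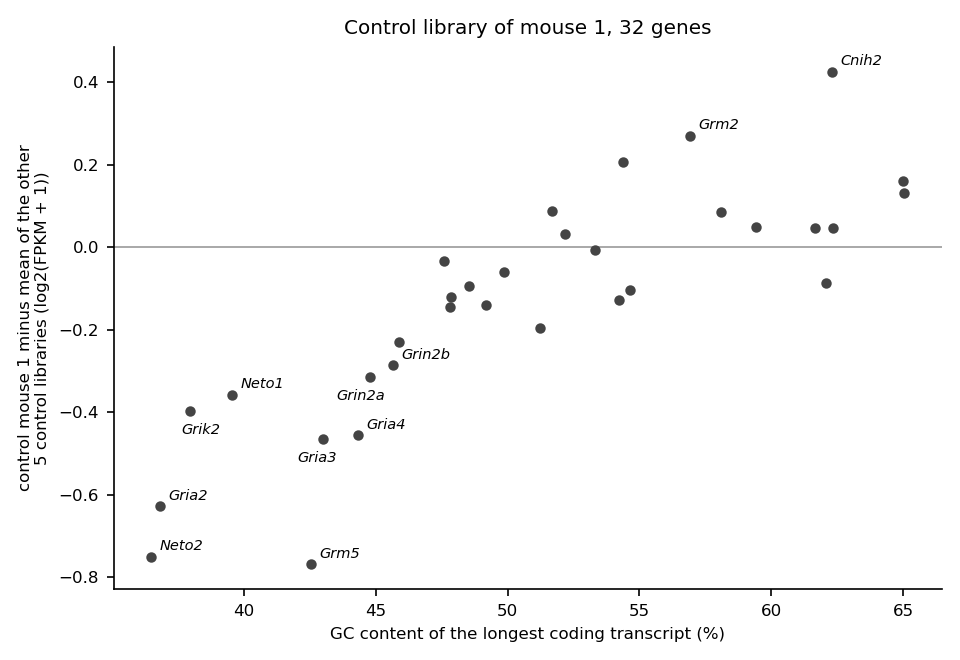
Deviation of the control library of mouse 1 from the mean of the other 5 control libraries (log2(FPKM + 1)) against the GC content of the transcript (percent), with 1 point for each of the 32 genes. Points fall from near 0.43 (Cnih2) at high GC content to -0.77 (Grm5) and -0.75 (Neto2) at low GC content.

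The summed level of hippocampal marker genes differed between libraries, and some of the receptor genes moved with it. These were picked out after their values were seen. The sum of 6 markers of hippocampal neurons (Prox1, C1ql2, Fibcd1, Spink8, Lct and Dsp) was 5.27 to 28.8 FPKM in control and 6.85 to 35.1 FPKM in cocktail, on average most of it from Fibcd1, with Dsp near 0. The sum followed Fibcd1 and Spink8, which moved with it in 6 of 6 mice, while Prox1 did so in 4, C1ql2 in 1, Lct in 4 and Dsp in 3. In mouse 1, for example, the sum fell by 0.27 on the log2 scale, whereas Prox1 differed by 0.38 and C1ql2 by 0.62 in the other direction. The sum was higher in cocktail in 3 mice and lower in 3. Cnih2 and Cacng8 moved in the same direction as the sum in 6 of 6 mice, as did 1.06% of all loci tested, while Gria1 did so in 4 of 6 and Cacng3 in 0. In mouse 6, where the sum rose by 1.78 on the log2 scale, Cnih2 went from 125 to 174 FPKM and Cacng8 from 56.3 to 69.1 FPKM, and in mouse 2, where the sum fell by 0.85, they went from 135 to 119.6 FPKM and from 53.4 to 44.4 FPKM. Mouse 1 is among the 6, and its control library deviated along GC content. In that library Cnih2, Cacng8 and Fibcd1 (62.3%, 65.1% and 59.4% GC) lay above the mean of the other 5 control libraries. The deviations were 0.43, 0.13 and 0.86 on the log2 scale. The parts of hippocampal tissue and of GC content in these values were not tested.

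**Figure D5:**
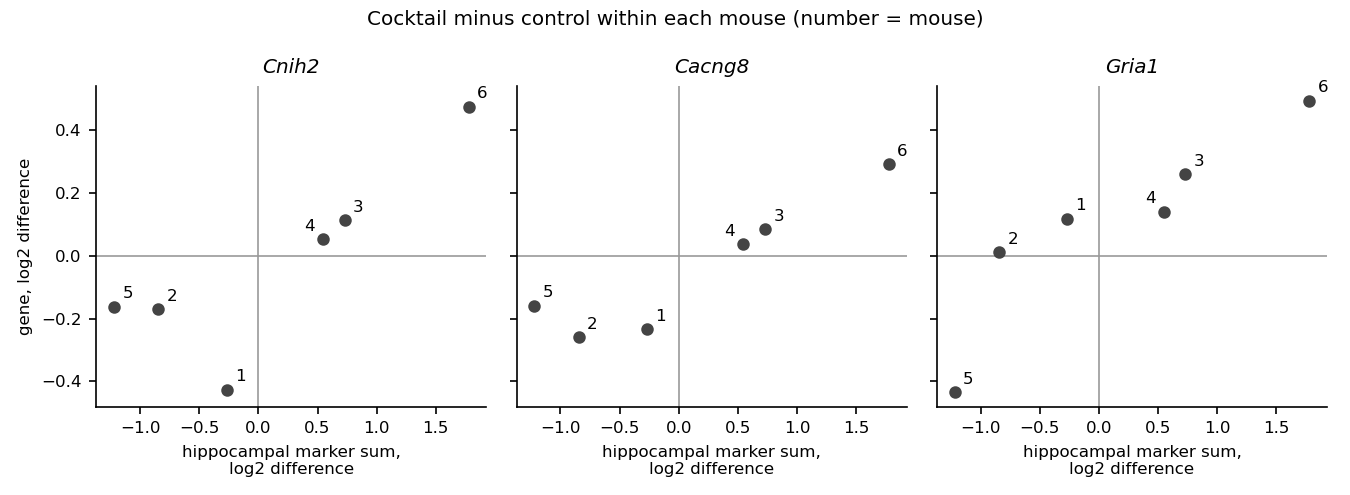
Difference between cocktail and control within each mouse (log2(FPKM + 1) of the gene, vertical) against that of the summed hippocampal markers (log2(sum + 1), horizontal), with numbered points for the 6 mice, for Cnih2, Cacng8 and Gria1. All 6 points of Cnih2 and Cacng8 lie at the lower left or upper right of the origin, against 4 of 6 for Gria1.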

How the data were processed

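RNA was measured in 6 control and 6 cocktail libraries. The authors removed ribosomal reads with BWA 0.6.1, aligned to mm10 with TopHat 1.4.1 with a single placement per read, and deposited FPKM values per locus from Cufflinks 1.3.0 with bias correction, each with an interval and a status. Labels group and pair the libraries. According to the study's methods, slices rested in aCSF for a further hour before dissection, which the labels do not state. A series table of HTSeq 0.6.1p1 counts compared with DESeq2 1.6.3 (authors' means, fold changes and p-values) was not used here, so no count test with those tools was run.

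FPKM were used as deposited. Reads behind a value were recovered from its interval, which spans 2 Poisson standard deviations. Of 36158 values under 20 reads, 83.2% were whole to within 0.05. Loci with a mean of at least 1 FPKM over the 12 libraries (12032) entered a limma 3.58.1 fit (R 4.3.3) on log2(FPKM + 1), with terms for treatment and mouse, a variance trend and Benjamini-Hochberg adjustment at 0.05. Fold changes on this scale understate those of low genes. The script was tested on simulated data. The mouse number comes from the labels: deviations from the group means correlated by 0.216 to 0.406 within a mouse (median 0.337) and by -0.42 to 0.44 between mice (median -0.07). Hemispheres come from the same animal, and the mouse term takes out differences in level between mice. The p-values of this fit and of the sign-flip test therefore rest on the 6 within-mouse differences. In limma their spread is combined with the variance trend over all loci.

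Full values were given for genes called or with an unadjusted p under 0.05, for the highest of each family and for the largest rise and fall. Members and lists were chosen with earlier results of these data known. Alternatives covered pseudocount, filter, scaling, block, variance trend, status, voom on recovered reads and each mouse left out, and removal of the GC and length trend was added after seeing the data. GC content and exon overlaps came from GENCODE M21, promoters from RefSeq. Figures used Python 3.11.15 and matplotlib 3.10.9.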

Additional observations from a re-analysis of the deposited data

Results flagged for a closer look

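In 10 of 98 groups of 6 values, a value was far from the other 5, by Dixon's gap-to-range criterion, where chance gives about 4.9. The groups are not independent, since within-mouse differences were formed from the control and cocktail values of the same genes. No excess over chance is therefore read from the count. In the control library of mouse 1, Grik2 was at 7.28 FPKM (the others 9.61 to 10.5), Grm5 at 13.6 (22.1 to 25.4), Grm8 at 2.81 (3.42 to 3.54), Neto1 at 16.6 (21.2 to 22.0) and Neto2 at 9.26 (14.9 to 17.1). The within-mouse log2 differences of mouse 1 stood apart for Grik1, at 0.29 against -0.09 to 0.05, and for Neto2, at 0.60 against -0.16 to 0.02. These 7 values share the library whose deviations followed GC content, and that part was not tested.

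Among cocktail libraries, Gria2 was at 111.8 FPKM in mouse 6, against 92.9 to 97.5 in the other 5, and Gria3 at 66.1 FPKM, against 52.5 to 57.5. Cacng3 was at 90.5 FPKM in the cocktail library of mouse 2, against 71.3 to 76.7. These 3 values are above the others, and Cacng3 was also highest in mouse 2 in control, at 85.3 FPKM.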

How the results depend on the processing

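Under each of 16 alternatives, 0 of the receptor genes and 0 of the other glutamate signalling genes were called, while the number of loci called among all ran from 88 to 209 (180 in the fit reported). Without the replicate block the pairing by mouse was ignored and 88 loci were called, with 0 receptor genes among them, so the block changed no call in either list. The number of receptor genes at an unadjusted p under 0.05 was between 0 and 4, the latter with voom on recovered reads, where Grm2, Grm4, Grm7 and Cnih3 were lower. Grm7 stayed below 0 in 16 of 16, from -0.16 to -0.11, with adjusted p in limma from 0.130 to 0.963, and Cnih3 in 16 of 16, from -0.10 to -0.06. Grin2a stayed above 0 in 16 of 16, from 0.15 to 0.37. Of the 32 genes, 17 kept their direction in every alternative run and 15 turned in at least 1, among them Gria3, below 0 in 11 of 16, Cnih2, in 13 of 16, and Grm5, above 0 in 15 of 16. Grin3b, with 1 to 16 reads per library, entered only the fit without a filter and was not called there.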

Other observations

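The spread between the 6 control mice set some receptor genes apart from loci of like level, as read from the standard deviation of log2(FPKM + 1) beside the 500 loci nearest in level. Grm5 was at percentile 99 with mouse 1 and at percentile 31.6 without it, and Neto2 went from 96.8 to 34.8. Gria1 (percentile 90 with and 98.2 without mouse 1), Cnih2 (95.2 and 94.8) and Grin2a (88.6 and 93.2) stayed variable. Both percentiles of Gria1 include the control value of mouse 6, which carried a failure status. Without mouse 1 the lowest percentiles were those of Grm8 (0, against 14.2 with mouse 1) and Neto1 (0.2, against 61.2), followed by those of Grik1 (3.0, against 3.2) and Grik2 (5.2, against 64.6). Neto1 and Grik2 were thus low only without mouse 1. Cacng7 was low with and without mouse 1 (4.2 and 8.2). These are descriptions, with no test.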
